A study of Mus musculus with 7 samples.

Results

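Skipped exons of more than 51 nucleotides (nt), in which 1 exon is left out between its neighbours, were compared over 7 RNA libraries of mouse neural cells. Across the 7 event tables, an entry was kept when its type was a skipped exon (SKIP, or XSKIP where the exon boundaries vary), not a skip of several exons together, and when the exon was longer than 51 nt. This gave 29551 of 126309 distinct events, made up of 12576 SKIP entries for the form with the exon (ON), 11567 SKIP entries for the form without it (OFF), 2850 XSKIP entries for the ON form and 2558 for the OFF form. They covered 15052 distinct exons, and 14574 of the events were listed in all 7 libraries.

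The libraries came from wild-type cells of the embryonic stem cell line B6G-2, which passed through embryoid bodies for 6 days and were grown as neural progenitors with bFGF and EGF. At day 14 the progenitors were moved to BrainPhys with B27 to differentiate into neurons and glia. They were exposed for 1 day to chlorpyrifos (an organophosphate), DDT (an organochlorine), rotenone (a blocker of mitochondrial complex I), carbaryl (a carbamate), deltamethrin (a pyrethroid) or imidacloprid (a neonicotinoid), or were left as control. Each of the 7 conditions had 1 library, so no difference below has a replicate check and none was tested; the labels give no dose and name the tissue as brain, and the libraries share 1 cell line and 1 protocol.

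A cassette exon is kept or removed according to how well its splice sites are recognised, which RNA-binding proteins such as the SR proteins and hnRNPs raise or lower. An exon whose length divides by 3 can be skipped without a change of reading frame, whereas other lengths shift the frame and often bring an early stop codon, which can mark the mRNA for nonsense-mediated decay. Neural differentiation is known for wide programmes of such switches, driven by PTBP, RBFOX, NOVA and other families. Short microexons are a class of their own, and the 51-nt limit keeps them out here.

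For each exon and library, the inclusion share was 100 times ON over the sum of ON and OFF, from the FPKM (a fragment rate corrected for transcript length and library size) of the 2 forms. Only values above 0 are listed. Of 15245 exon positions of the SKIP type, 9931 had both forms in at least 1 library and 2346 in all 7. A total of 1689 of these had ON + OFF of at least 5 FPKM in every library, which is the set described over the 7 libraries. The XSKIP entries paired into 396 exons that repeated a SKIP pair with identical ON values, so SKIP pairs alone were counted. Their OFF values were not compared. These 1689 positions (1684 distinct exons) lay in 1351 named genes, and all values are estimates for transcript models, so that a share can move when a model is assigned more or less of a gene's signal.

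Each library listed between 90522 and 92229 distinct events of any type, and between 20556 and 20920 of the long skipped exons, ON and OFF forms counted apart. No read counts are in the files used, so the depth is unknown. Levels at transcript starts gave Nes between 165 and 206 FPKM, Vim between 995 and 1233 FPKM, and 4 of 5 neuron markers and 2 of 5 astrocyte markers above 1 FPKM in every library. Gfap, Aqp4 and S100b stayed under 1 FPKM, and no start event was matched to Sox2, Tubb3, Olig2 or Sox10. The other oligodendrocyte lineage markers were Pdgfra, at 1.98 to 2.78 FPKM in all 7 libraries, and Mbp, listed in 6 at up to 2.09 FPKM. The summed level of this lineage was 2.77 to 4.86 FPKM. Fabp7, a radial glial marker, ranged from 66.2 FPKM with rotenone to 2620 FPKM in control. Summed marker levels of mesenchymal cells were 9.16 to 17.2 FPKM and those of pluripotent cells at most 0.15 FPKM, while endothelial and microglial markers had no matched start event. In bulk RNA, fewer cells of a type and less RNA per cell cannot be told apart.

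The exons in this and the next paragraph carry the results that follow, and their sequences are shown in the sense of the transcript, 5′ to 3′, from the GENCODE M21 transcripts on build GRCm38, with the last 3 bases of the exon, which form the exonic side of its 5′ splice site, in capitals. The first 4 are coding exons that stayed at an intermediate inclusion share, with ranges over the 7 libraries from 2.54 points (Hnrnpab) to 7.85 points (Erh):
Hnrnpab, chr11:51601750-51601890, minus strand, exon 7 of 8, 141 nt: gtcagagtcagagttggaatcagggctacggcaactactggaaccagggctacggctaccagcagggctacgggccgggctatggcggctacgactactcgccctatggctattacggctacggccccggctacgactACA
Ybx3, chr6:131375974-131376180, minus strand, exon 6 of 10, 207 nt: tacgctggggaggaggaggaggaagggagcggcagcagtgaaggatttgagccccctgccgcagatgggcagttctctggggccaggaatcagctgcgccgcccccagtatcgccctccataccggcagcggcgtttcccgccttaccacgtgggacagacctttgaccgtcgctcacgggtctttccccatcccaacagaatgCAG
H2afv, chr11:6433724-6433837, minus strand, exon 3 of 5, 114 nt: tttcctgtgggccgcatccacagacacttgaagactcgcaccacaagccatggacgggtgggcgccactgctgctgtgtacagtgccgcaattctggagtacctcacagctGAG
Erh, chr12:80642789-80642845, minus strand, exon 2 of 5, 57 nt: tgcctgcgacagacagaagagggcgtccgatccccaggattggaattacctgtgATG

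The other 6 are coding exons at which 1 library stood apart from the rest, which lay close together, with 1 exon for each of 6 libraries (Desi1 with chlorpyrifos, Eif2a with DDT, Mcf2l with rotenone, Zyx with carbaryl, Lrrc49 with imidacloprid and Tfe3 in control):
Desi1, chr15:82002541-82002610, minus strand, exon 3 of 6, 70 nt: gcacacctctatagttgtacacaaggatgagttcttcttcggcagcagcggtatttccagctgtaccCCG
Eif2a, chr3:58539528-58539646, plus strand, exon 4 of 14, 119 nt: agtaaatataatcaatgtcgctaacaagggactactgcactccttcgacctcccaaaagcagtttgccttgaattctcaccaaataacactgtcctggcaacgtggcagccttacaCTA
Mcf2l, chr8:13014819-13014893, plus strand, exon 18 of 21, 75 nt: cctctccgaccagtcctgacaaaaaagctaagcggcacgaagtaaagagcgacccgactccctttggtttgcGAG
Zyx, chr6:42350946-42351148, plus strand, exon 3 of 9, 203 nt: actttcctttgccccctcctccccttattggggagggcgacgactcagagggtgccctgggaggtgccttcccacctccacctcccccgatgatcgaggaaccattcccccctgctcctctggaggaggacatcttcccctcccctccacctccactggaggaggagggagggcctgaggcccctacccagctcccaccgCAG
Lrrc49, chr9:60680505-60680702, minus strand, exon 4 of 17, 198 nt: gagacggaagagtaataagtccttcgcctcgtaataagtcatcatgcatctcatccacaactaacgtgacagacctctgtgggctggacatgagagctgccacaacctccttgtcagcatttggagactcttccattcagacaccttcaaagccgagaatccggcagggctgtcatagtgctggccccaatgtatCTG
Tfe3, chrX:7767893-7767997, plus strand, exon 5 of 10, 105 nt: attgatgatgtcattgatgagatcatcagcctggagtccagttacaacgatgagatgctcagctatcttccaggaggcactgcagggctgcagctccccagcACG

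High inclusion was the most common state of these long cassette exons: 737 of 1689 had a mean share above 80%, 571 lay over 20% and up to 80%, and 381 were at 20% or less. The median inclusion share lay between 69.8% (imidacloprid) and 72.4% (DDT), with 71.0% in control. In each library 28.4% to 30.1% of the 1689 exons were at 95% or more, and 13.1% to 13.8% were at 5% or less. What an exon encodes went with how often it was kept: the 1183 exons that are coding in the matched transcript had a median share of 84.0%, the 183 UTR exons 19.1% and the 252 exons that are partly coding 23.9%. Among the partly coding exons, 46.4% had an ON form annotated as a target of nonsense-mediated decay, against 18.8% of the coding exons. An exon was called partly coding when a coding sequence starts or ends in it and no matched transcript codes through it. The early stop of a decay target can thus itself place an exon in this class, so the excess is partly built into the annotation.

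Reading frame went with inclusion as well. Of the coding exons with a mean share of up to 20%, 97 of 127 (76.4%) had a length divisible by 3, as did 307 of 401 (76.6%) between 20% and 80%. Above 80% it was 318 of 655 (48.5%). A coding exon that was skipped in much of its gene's RNA was thus more often one whose loss keeps the frame. These counts use the annotation and the mean share over all libraries and say nothing of the insecticides.

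**Figure D1:**
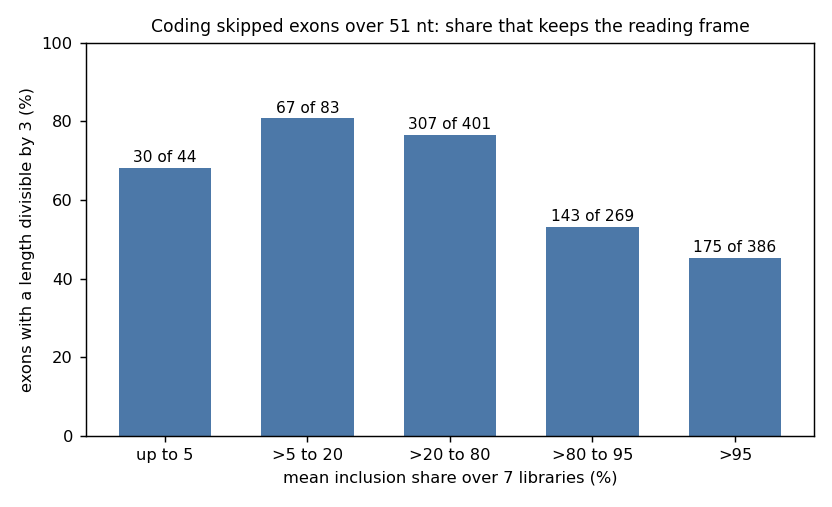
Share of coding skipped exons over 51 nt whose length divides by 3 (vertical axis, percent, from 0), by the mean inclusion share over 7 libraries (horizontal axis, percent), with the counts above the bars. The bars are highest for exons of over 5% to 20% (67 of 83) and of over 20% to 80% (307 of 401) and lowest for exons above 95% (175 of 386).

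The shortest of these exons were kept least often. The median length was 107 nt. The median share was 55.0% for the 352 exons of 52 to 75 nt and 60.5% to 77.5% in the longer classes. At the limit of the set, 48 exons of 52 to 54 nt had a median share of 32.0%, and 37 exons of 49 to 51 nt, just outside it, had 52.8%. The last base was G, the usual letter there, in 80.8% of the 1669 exons with a sequence, with 84.0% above a mean share of 80% and 77.4% at up to 20%. The trinucleotides CAG and AAG ended 23.1% and 19.9% of the exons. Median GC content was 50.2%, and 51.3% for exons between 20% and 80%.

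How far a share moved across the 7 libraries went with where it lay on the scale and with how strongly the gene was listed. The median range, highest minus lowest share, was 17.9 points. A total of 585 exons (34.6%) spanned under 10 points, against a background of 40.1% of all 3034 ON and OFF pairs of any event type, and 775 (45.9%) spanned 20 points or more, against a background of 41.6%. The median range was 27.5 points for exons of 5 to 10 FPKM (mean ON + OFF) and 1.60 points above 100 FPKM. In genes with up to 3 annotated transcripts it was 14.2 points, and in genes with 13 or more it was 23.5 points. Among the 571 exons with a mean share between 20% and 80%, level mattered less: the median range was 37.0 points at 5 to 10 FPKM and 31.1 points above 100 FPKM, and 15 of the 571 spanned under 10 points. The part of the splicing machinery and of the transcript-model estimate in these ranges was not tested.

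**Figure D2:**
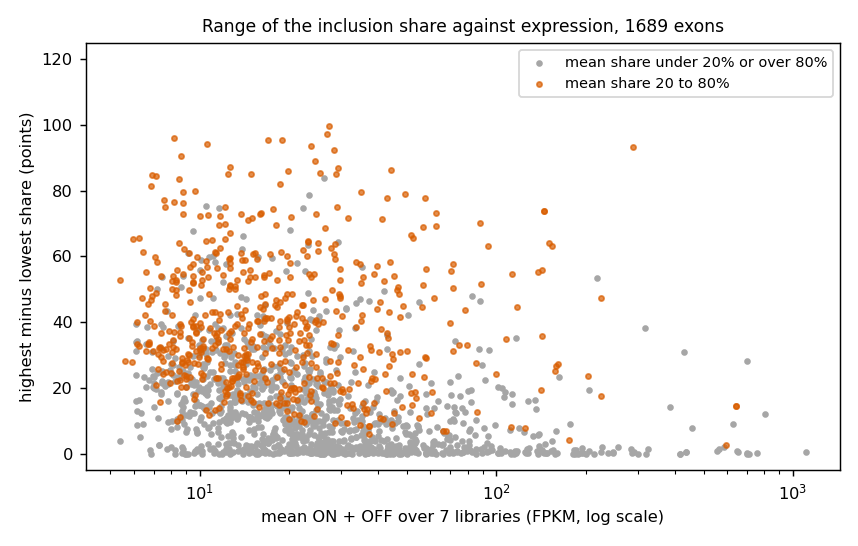
Range of the inclusion share over 7 libraries (vertical axis, percentage points) against mean ON + OFF (horizontal axis, FPKM, log scale) for 1689 exons, 1 point each. Exons with a mean share of 20% to 80% (orange) have a median range of 36.7 points, while most exons outside it (grey) lie low, and the lowest lie at every level.

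Only a few exons held an intermediate share steadily. The narrowest range was that of the 141-nt coding exon of Hnrnpab, an hnRNP of the A/B family, printed above. Its share was 41.6% with chlorpyrifos, 41.6% with DDT, 44.02% with rotenone, 43.4% with carbaryl, 41.5% with deltamethrin, 42.3% with imidacloprid and 43.8% in control, a range of 2.54 points at a mean ON + OFF of 593 FPKM. The 207-nt exon of Ybx3, a cold-shock-domain protein that binds mRNA, was at 34.9% with chlorpyrifos, 34.3% with DDT, 36.1% with rotenone, 38.4% with carbaryl, 36.8% with deltamethrin, 36.9% with imidacloprid and 35.6% in control. No library stood apart for either exon, and control lay within the exposed libraries for Ybx3 and for Hnrnpab. Both lengths divide by 3.

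The other 8 of the 10 narrowest spanned 5.92 to 9.10 points. Erh, a small nuclear protein tied to RNA processing, kept its 57-nt exon at 30.5% to 38.4%. Lsm6, part of the LSM ring on U6 snRNA, held a 99-nt UTR exon at 37.8% to 43.7%. H2afv, a histone H2A.Z gene, included its 114-nt exon at 74.03% to 80.8%, and the lowest of these was imidacloprid. The membrane proteolipid gene Gpm6b had its 91-nt exon at 25.9% to 32.8%, and Cox7a2l, which helps join respiratory complexes, a 69-nt exon at 29.2% to 37.3%. Psmg4 (a proteasome assembly chaperone, 76 nt) was at 70.9% to 79.4%, Mgea5 (the enzyme that removes O-GlcNAc, 86 nt) at 70.98% to 79.7%, and Spire1 (an actin nucleator, 174 nt) at 48.5% to 57.6%. Mean ON + OFF of the 10 was 34.7 to 593 FPKM.

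**Figure D3:**
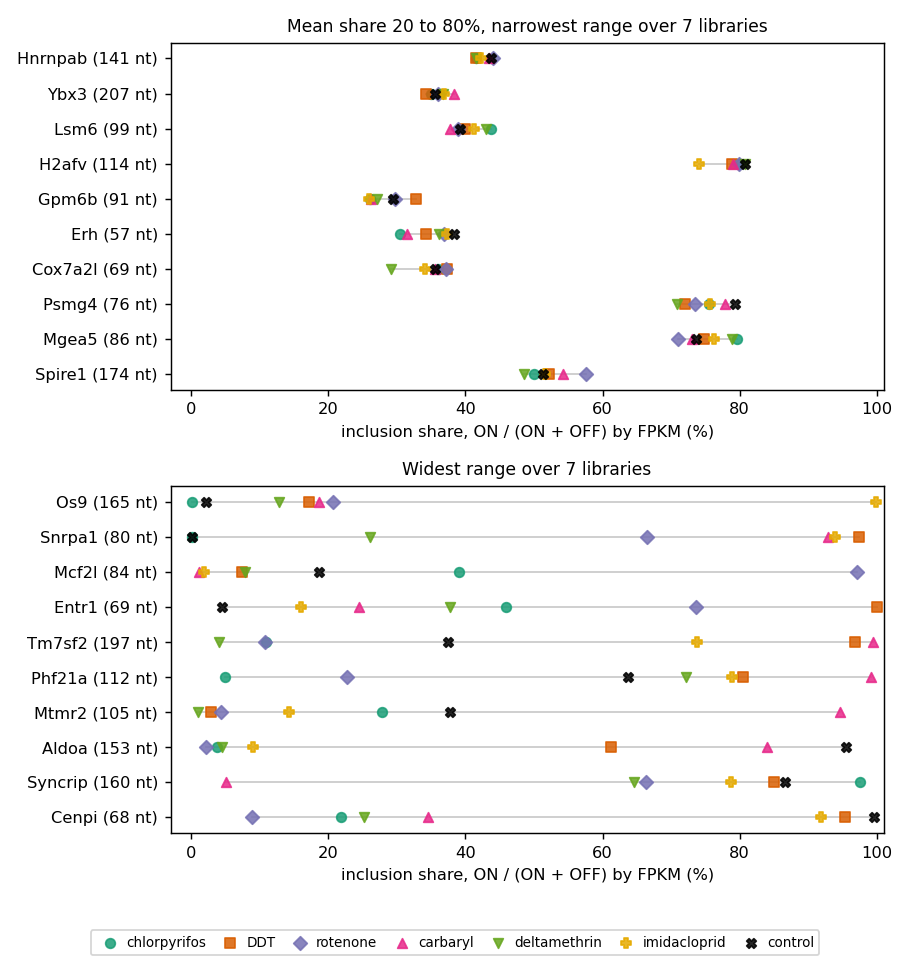
Inclusion share in each of the 7 libraries (horizontal axis, percent; 1 marker per library, grey line from lowest to highest) for the 10 exons of mean share 20% to 80% with the narrowest range (top) and the 10 exons with the widest range (bottom). Hnrnpab spans 2.54 points, while Os9, Snrpa1 and Mcf2l span over 95 points.

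Any 2 of the 7 libraries differed at about as many long cassette exons as an insecticide and control did. A difference of 20 points or more was used as the limit for a count. The 6 pairs of an insecticide with control had 13.5% to 14.4% of exons past it (median 13.9%), and the 15 pairs of 2 insecticides had 12.8% to 14.8% (median 13.6%). In the 6 comparisons 56.8% to 58.6% of exons lay within 5 points of control. Of the exons past the limit, 47.6% to 53.6% had higher inclusion than in control, and which direction had more exons depended on the settings for 5 of the 6 insecticides. All 6 comparisons share the control library, so an exon at which that library was unlike the rest appears in several of them.

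The total of both forms differed slightly more where the share differed. The exons past 20 points had a median ON + OFF ratio to control of 1.19-fold to 1.24-fold in either direction over the 6 comparisons, against 1.11-fold to 1.13-fold for the other exons. A total at least 2-fold apart was found for 9.02% to 11.7% of the exons past 20 points and 3.42% to 4.77% of the others.

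**Figure D4:**
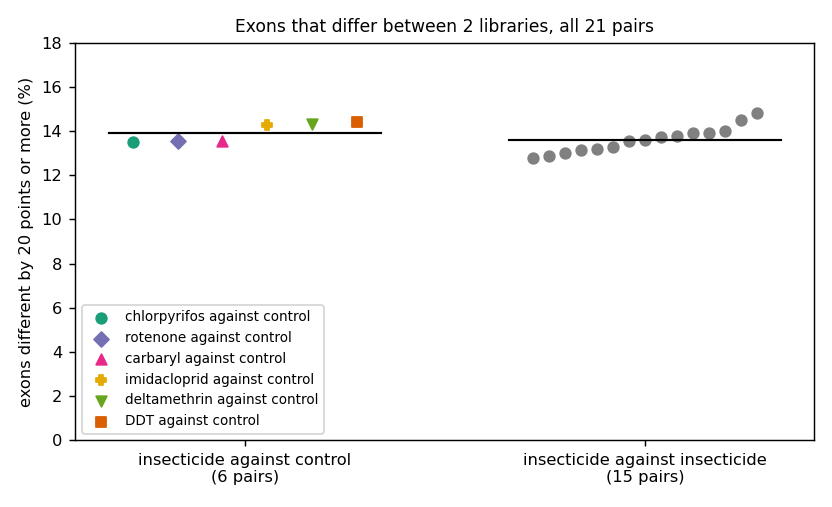
Share of exons whose inclusion differs by 20 points or more (vertical axis, percent, from 0) for the 6 pairs of an insecticide with control (left, coloured) and the 15 pairs of 2 insecticides (right, grey); black lines are medians. The 2 sets of pairs overlap, with medians of 13.9% and 13.6%.

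With chlorpyrifos, 364 of 2699 exons (13.5%) differed from control by 20 points or more, 179 with a higher share and 185 with a lower one; over all 4806 ON and OFF pairs of any event type the background was 12.7%, 6.3% higher and 6.43% lower. The 71-nt coding exon (exon 3 of 6, chr2:36127181-36127251) of Rbm18, an RNA-binding protein, was at 93.4% with chlorpyrifos (ON 14.9 and OFF 1.04 FPKM), against 4.33% in control (ON 0.751 and OFF 16.6 FPKM). Shares of 0.0125% to 6.68% were found in 2 further exposed libraries where it could be used. Rgs7, a regulator of G protein signalling in neurons, had its 54-nt coding exon (exon 3 of 4, chr1:175076824-175076877) at 70.6% with chlorpyrifos (ON 10.8 and OFF 4.50 FPKM), against 2.86% in control (ON 0.151 and OFF 5.11 FPKM). Values from 1.19% to 36.3% were found in 5 further exposed libraries where it could be used. Kidins220, a scaffold at neurotrophin receptors, had its 114-nt coding exon (exon 19 of 24, chr12:25040456-25040569) at 79.4% with chlorpyrifos (ON 10.9 and OFF 2.82 FPKM), against 12.6% in control (ON 1.87 and OFF 12.97 FPKM). Shares from 15.2% to 48.02% were found in 4 further exposed libraries where it could be used. Chlorpyrifos stood above all other libraries that could be used for these 3 exons. For the 105-nt coding exon (exon 5 of 10, chrX:7767893-7767997) of Tfe3, a transcription factor of lysosome and autophagy genes, it was control that differed: the share was 99.98% with chlorpyrifos (ON 10.4 and OFF 0.00164 FPKM), against 25.2% in control (ON 2.59 and OFF 7.67 FPKM). Shares of 90.8% to 99.99% were found in 5 further exposed libraries where it could be used.

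The largest decreases with chlorpyrifos included the motor protein gene Myo5a, which carries vesicles along actin. Its 81-nt coding exon (exon 31 of 41, chr9:75192384-75192464) was at 10.9% with chlorpyrifos (ON 3.16 and OFF 25.9 FPKM), against 90.9% in control (ON 25.8 and OFF 2.59 FPKM), and the other exposed libraries ran from 40.3% to 99.9%. Faxc had its 197-nt non-coding-transcript exon (exon 3 of 5, chr4:21948692-21948888) at 4.68% with chlorpyrifos (ON 0.445 and OFF 9.06 FPKM), against 81.6% in control (ON 6.45 and OFF 1.45 FPKM). Values from 79.2% to 88.6% were found in 3 further exposed libraries where it could be used. For Myo5a and Faxc, chlorpyrifos was the lowest of all libraries that could be used. Aldoa, the glycolytic enzyme aldolase A, had its 153-nt partly coding exon (exon 2 of 10, chr7:126797974-126798126) at 3.71% with chlorpyrifos (ON 8.34 and OFF 216 FPKM), against 95.4% in control (ON 304 and OFF 14.5 FPKM), but the share was also low with rotenone, deltamethrin and imidacloprid. Cenpi, a kinetochore protein, had its 68-nt UTR exon (exon 2 of 23, chrX:134308566-134308633) at 21.8% with chlorpyrifos (ON 1.65 and OFF 5.93 FPKM), against 99.5% in control (ON 9.22 and OFF 0.0426 FPKM), and rotenone, carbaryl and deltamethrin were low as well.

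With DDT, 388 of 2696 exons (14.4%) differed from control by 20 points or more, 188 with a higher share and 200 with a lower one; over all 4820 ON and OFF pairs of any event type the background was 13.1%, 6.33% higher and 6.76% lower. Entr1, an endosomal trafficking regulator, had its 69-nt coding exon (exon 2 of 9, chr2:26388492-26388560) at 99.996% with DDT (ON 12.96 and OFF 0.000578 FPKM), against 4.57% in control (ON 1.17 and OFF 24.4 FPKM). Shares from 16.02% to 73.6% were found in 5 further exposed libraries where it could be used. DDT was the highest of the 7 libraries and control the lowest. Snrpa1, a protein of the U2 snRNP, had its 80-nt coding exon (exon 6 of 9, chr7:66070119-66070198) at 97.4% with DDT (ON 29.6 and OFF 0.780 FPKM), against 0.145% in control (ON 0.00748 and OFF 5.14 FPKM). Control and chlorpyrifos were both under 1% for it, while deltamethrin was at 26.2% and rotenone, carbaryl and imidacloprid at 66.6% to 93.9%. The control total of ON + OFF for Snrpa1 was 5.15 FPKM, near the limit of use. Control totals were also near this limit for the named exons of Rgs7, Synrg, Scube1 and Tom1 and for the 84-nt exon of Mcf2l (5.55 FPKM). In exposed libraries, the totals of Ercc8 with DDT and of Alkbh1 with deltamethrin were near it too. Eif4enif1, the transporter of the cap-binding factor eIF4E, had its 72-nt coding exon (exon 11 of 19, chr11:3233988-3234059) at 97.3% with DDT (ON 15.9 and OFF 0.438 FPKM), against 14.2% in control (ON 2.55 and OFF 15.4 FPKM). Control was the lowest library for it: chlorpyrifos was at 79.6%, rotenone at 31.1%, deltamethrin at 99.4% and imidacloprid at 40.5%. The 87-nt coding exon (exon 11 of 14, chr5:31546180-31546266) of Slc4a1ap was at 82.3% with DDT (ON 6.30 and OFF 1.35 FPKM), against 0.00422% in control (ON 0.000269 and OFF 6.37 FPKM), with 57.4% for deltamethrin and 84.5% for imidacloprid.

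Among the decreases with DDT, that of the 116-nt partly coding exon (exon 3 of 6, chr9:7785211-7785326) of Tmem123 was seen in no other library that could be used: its share was 2.57% with DDT (ON 1.06 and OFF 40.2 FPKM), against 86.7% in control (ON 37.5 and OFF 5.77 FPKM). Shares of 85.4% to 89.6% were found in 4 further exposed libraries where it could be used. Synrg, a partner of the AP-1 clathrin adaptor, had its 234-nt coding exon (exon 7 of 22, chr11:83986814-83987047) at 23.04% with DDT (ON 2.36 and OFF 7.87 FPKM), against 99.3% in control (ON 5.44 and OFF 0.0409 FPKM). Values from 44.4% to 81.5% were found in 5 further exposed libraries where it could be used, so that DDT was the lowest library and control the highest. Ercc8, a DNA repair factor that acts at stalled transcription, had its 102-nt coding exon (exon 3 of 12, chr13:108166390-108166491) at 12.5% with DDT (ON 0.696 and OFF 4.89 FPKM), against 92.9% in control (ON 6.12 and OFF 0.468 FPKM), and carbaryl was at 15.4% too. For Stard4, a cholesterol carrier, the 115-nt coding exon (exon 5 of 6) was at 15.2% with DDT (ON 2.43 and OFF 13.5 FPKM), against 99.99% in control (ON 19.4 and OFF 0.00264 FPKM), with 16.3% for carbaryl.

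With rotenone, 371 of 2742 exons (13.5%) differed from control by 20 points or more, 199 with a higher share and 172 with a lower one; over all 4916 ON and OFF pairs of any event type the background was 12.7%, 6.71% higher and 6% lower. Zfp180, a zinc finger gene, had its 104-nt coding exon (exon 3 of 6, chr7:24086488-24086591) at 89.5% with rotenone (ON 6.75 and OFF 0.790 FPKM), against 5.56% in control (ON 0.434 and OFF 7.37 FPKM). Shares from 0.222% to 6.54% were found in 4 further exposed libraries where it could be used. The 157-nt UTR exon (exon 2 of 6, chr6:57808536-57808692) of Vopp1 was at 88.1% with rotenone (ON 24.3 and OFF 3.28 FPKM), against 4.35% in control (ON 1.09 and OFF 24.1 FPKM). Shares of 5.21% to 7.75% were found in 5 further exposed libraries where it could be used. Scube1, a cell-surface protein with EGF-like repeats, had its 90-nt coding exon (exon 7 of 23, chr15:83651655-83651744) at 81.4% with rotenone (ON 5.46 and OFF 1.25 FPKM), against 0.131% in control (ON 0.00661 and OFF 5.06 FPKM). Values from 10.4% to 31.5% were found in 5 further exposed libraries where it could be used, all above control. In these 3 genes and in Mcf2l rotenone was the highest library. Mcf2l encodes a guanine nucleotide exchange factor, and its 84-nt coding exon (exon 6 of 9, chr8:13013915-13013998) was at 97.1% with rotenone (ON 10.4 and OFF 0.313 FPKM), against 18.6% in control (ON 1.03 and OFF 4.52 FPKM).

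Sec24c, a cargo-binding part of the COPII coat, was lowest with rotenone: its 69-nt coding exon (exon 7 of 24, chr14:20685212-20685280) was at 0.770% with rotenone (ON 0.191 and OFF 24.6 FPKM), against 84.7% in control (ON 26.8 and OFF 4.84 FPKM). Chlorpyrifos was at 29.1% for this exon and the other 4 exposed libraries at 80.04% to 85.7%. Tom1, an endosomal sorting protein, had its 79-nt coding exon (exon 3 of 15, chr8:75050190-75050268) at 15.2% with rotenone (ON 1.13 and OFF 6.30 FPKM), against 99.8% in control (ON 5.02 and OFF 0.00808 FPKM). Shares from 32.998% to 94.5% were found in 5 further exposed libraries where it could be used. The Aldoa exon was at 2.22% with rotenone, against 95.4% in control, and the Cenpi exon at 8.90%, against 99.5%.

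With carbaryl, 369 of 2719 exons (13.6%) differed from control by 20 points or more, 182 with a higher share and 187 with a lower one; over all 4853 ON and OFF pairs of any event type the background was 13%, 6.18% higher and 6.78% lower. Ehmt2, the histone H3 lysine methyltransferase G9a, was highest with carbaryl: its 102-nt coding exon (exon 9 of 27, chr17:34905610-34905711) was at 93.6% with carbaryl (ON 39.2 and OFF 2.69 FPKM), against 8.24% in control (ON 3.68 and OFF 40.96 FPKM). Shares of 7.14% to 31.1% were found in 5 further exposed libraries where it could be used. Itga6, the alpha-6 subunit of laminin-binding integrins, had its 130-nt partly coding exon (exon 25 of 26, chr2:71853534-71853663) at 78.7% with carbaryl (ON 26.9 and OFF 7.28 FPKM), against 5.59% in control (ON 2.36 and OFF 39.8 FPKM). Values from 1.07% to 42.5% were found in 5 further exposed libraries where it could be used. Carbaryl was the highest library for both genes. Ccnt1, the cyclin of the elongation factor P-TEFb, had its 164-nt coding exon (exon 8 of 10, chr15:98546745-98546908) at 97.2% with carbaryl (ON 6.35 and OFF 0.180 FPKM), against 24.5% in control (ON 2.53 and OFF 7.78 FPKM), but rotenone was at 98.4% and imidacloprid at 94.6%. The Snrpa1 exon was at 92.9% with carbaryl, against 0.145% in control.

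Among the decreases with carbaryl, Matr3 and Syncrip were lower than in every other library that could be used. Matr3, a nuclear matrix protein that binds RNA, had its 1093-nt partly coding exon (exon 2 of 15) at 6.48% with carbaryl (ON 6.87 and OFF 99.2 FPKM), against 97.9% in control (ON 27.8 and OFF 0.598 FPKM). Shares from 99.9% to 99.99% were found in 4 further exposed libraries where it could be used. The sum of the 2 forms was also larger with carbaryl. Syncrip, known as hnRNP Q, had its 160-nt partly coding exon (exon 2 of 12, chr9:88480606-88480765) at 5.05% with carbaryl (ON 0.512 and OFF 9.63 FPKM), against 86.6% in control (ON 33.4 and OFF 5.14 FPKM). Shares of 64.6% to 97.5% were found in 5 further exposed libraries where it could be used. Cct8, a subunit of the TRiC chaperonin, had its 80-nt coding exon (exon 3 of 15, chr16:87493707-87493786) at 20.6% with carbaryl (ON 23.6 and OFF 91.003 FPKM), against 99.4% in control (ON 128 and OFF 0.716 FPKM), but DDT (29.03%) and imidacloprid (20.4%) were low too. Stard4 was at 16.3% with carbaryl, against 99.99% in control.

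With deltamethrin, 388 of 2706 exons (14.3%) differed from control by 20 points or more, 199 with a higher share and 189 with a lower one; over all 4838 ON and OFF pairs of any event type the background was 13.4%, 6.78% higher and 6.61% lower. The 60-nt UTR exon (exon 2 of 3, chr9:108518767-108518826) of Qrich1 was at 92.7% with deltamethrin (ON 28.9 and OFF 2.27 FPKM), against 8.79% in control (ON 2.64 and OFF 27.4 FPKM). Values from 5.90% to 12.2% were found in 5 further exposed libraries where it could be used, so that deltamethrin alone was high. Sun1, a nuclear envelope protein that ties the nucleus to the cytoskeleton, had its 192-nt coding exon (exon 7 of 23, chr5:139229753-139229944) at 94.7% with deltamethrin (ON 10.7 and OFF 0.605 FPKM), against 10.3% in control (ON 0.675 and OFF 5.85 FPKM), but all the exposed libraries that could be used were above control, at 59.7% or more. Alkbh1, a demethylase of nucleic acids, had its 73-nt UTR exon (exon 3 of 8, chr12:87441271-87441343) at 85.4% with deltamethrin (ON 4.77 and OFF 0.813 FPKM), against 3.25% in control (ON 0.270 and OFF 8.01 FPKM), but chlorpyrifos was at 66.2% and carbaryl at 46.5% too, with rotenone at 5.31%. The Eif4enif1 exon was at 99.4% with deltamethrin, against 14.2% in control; DDT was at 97.3%.

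Clk2, a kinase that phosphorylates SR proteins, was at the low end with deltamethrin: its 85-nt coding exon (exon 4 of 13, chr3:89169618-89169702) was at 2.57% with deltamethrin (ON 0.276 and OFF 10.5 FPKM), against 81.96% in control (ON 8.38 and OFF 1.84 FPKM). Shares from 29.7% to 88.3% were found in 4 further exposed libraries where it could be used. Ube2j1, a ubiquitin-conjugating enzyme of the endoplasmic reticulum, had its 74-nt coding exon (exon 2 of 8, chr4:33036709-33036782) at 20.1% with deltamethrin (ON 2.36 and OFF 9.40 FPKM), against 98.9% in control (ON 10.5 and OFF 0.114 FPKM). Shares of 96.3% to 98.3% were found in 2 further exposed libraries where it could be used. Deltamethrin was the lowest library for both. Map4, a microtubule-binding protein, had its 190-nt coding exon (exon 5 of 6, chr9:110081421-110081610) at 7.86% with deltamethrin (ON 3.27 and OFF 38.3 FPKM), against 98.1% in control (ON 6.87 and OFF 0.134 FPKM), and no other library could be used for it. The difference of -90.2 points for this pair of forms was -39.7 points when all events listed for the same exon were added together. The Aldoa exon was at 4.50% with deltamethrin.

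With imidacloprid, 389 of 2725 exons (14.3%) differed from control by 20 points or more, 185 with a higher share and 204 with a lower one; over all 4834 ON and OFF pairs of any event type the background was 13.1%, 6.27% higher and 6.85% lower. Os9, a lectin that hands misfolded glycoproteins to degradation, had the widest range of all 1689 exons. Its 165-nt coding exon (exon 13 of 15, chr10:127096915-127097079) was at 99.9% with imidacloprid (ON 16.9 and OFF 0.0165 FPKM), against 2.13% in control (ON 0.5001 and OFF 22.95 FPKM). Values from 0.105% to 20.7% were found in 5 further exposed libraries where it could be used. Kmt2e, a chromatin regulator of the MLL family, had its 73-nt UTR exon (exon 2 of 27, chr5:23446526-23446598) at 98.04% with imidacloprid (ON 6.42 and OFF 0.128 FPKM), against 6.63% in control (ON 0.765 and OFF 10.8 FPKM). Shares from 31.9% to 84.3% were found in 3 further exposed libraries where it could be used, all above control. The exons of Snrpa1 and Slc4a1ap were at 93.9% and 84.5% with imidacloprid, against 0.145% and 0.00422% in control, and both were above 80% with DDT too.

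Med15, a tail subunit of the Mediator complex, was lowest with imidacloprid: its 120-nt coding exon (exon 9 of 18, chr16:17663377-17663496) was at 21.5% with imidacloprid (ON 2.55 and OFF 9.35 FPKM), against 93.6% in control (ON 7.17 and OFF 0.489 FPKM). Shares of 33.7% to 89.8% were found in 5 further exposed libraries where it could be used. Usp14, a deubiquitinase of the proteasome, had its 105-nt coding exon (exon 4 of 16) at 23.5% with imidacloprid (ON 9.47 and OFF 30.8 FPKM), against 98.6% in control (ON 19.4 and OFF 0.282 FPKM). Its share was also low with chlorpyrifos (24.4%), rotenone (27.6%) and carbaryl (32.6%). The Cct8 exon was at 20.4% with imidacloprid, against 99.4% in control, and the Aldoa exon at 8.98%, against 95.4%.

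The widest ranges joined low-expressed and high-expressed genes. For Aldoa, with a mean ON + OFF of 289 FPKM, the share was 3.71% with chlorpyrifos, 61.2% with DDT, 2.22% with rotenone, 84.02% with carbaryl, 4.50% with deltamethrin, 8.98% with imidacloprid and 95.4% in control: 4 libraries were under 10% and 3 above 60%. Tm7sf2, a sterol reductase of cholesterol synthesis, had a 197-nt coding exon at 10.9% with chlorpyrifos, 96.8% with DDT, 10.8% with rotenone, 99.5% with carbaryl, 4.12% with deltamethrin, 73.8% with imidacloprid and 37.5% in control. Shares for it were spread over the whole scale, with no split between exposed libraries and control. The 112-nt UTR exon of Phf21a, a subunit of the LSD1 histone demethylase complex, was at 4.89% with chlorpyrifos, 80.5% with DDT, 22.8% with rotenone, 99.1% with carbaryl, 72.2% with deltamethrin, 78.9% with imidacloprid and 63.8% in control. Mtmr2, a phosphoinositide phosphatase, had a 105-nt exon at 27.9% with chlorpyrifos, 2.88% with DDT, 4.42% with rotenone, 94.6% with carbaryl, 0.991% with deltamethrin, 14.3% with imidacloprid and 37.8% in control, where carbaryl alone was high.

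A stricter view asks at which exons 1 library lay at least 20 points from all 6 others while those 6 spanned under 10 points. This description was chosen after the values had been seen. It held for 8 exons with chlorpyrifos (background 0.363%), 5 exons with DDT (background 0.33%), 9 exons with rotenone (background 0.494%), 9 exons with carbaryl (background 0.428%), 4 exons with deltamethrin (background 0.231%), 8 exons with imidacloprid (background 0.428%) and 10 exons in control (background 0.527%), out of 1689, where each background is over all 3034 ON and OFF pairs. Control was apart at 10 exons, the most of the 7 libraries. Of the 53 exons, 39 were coding and 26 had a length divisible by 3. The total of both forms was within the range of the other 6 libraries for 20 of them and at least 2-fold from their median for 9. Some exons of a gene are listed with a form in common, the ON values of one being the OFF values of another in all 7 libraries (within 0.1%), and their shares then move together by construction: this holds for 67 of the 1689 exons and 5 of the 53, Zyx and Vopp1 among them.

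The exon printed above for Desi1, which removes SUMO from proteins, was at 21.8% with chlorpyrifos, against 88.8% to 96.4% in the other 6 libraries. ON + OFF was 24.3 FPKM in that library, against 18.9 to 23.95 FPKM in the others. The 147-nt coding exon of the chaperone Bag6 was at 81.7% with chlorpyrifos, against 28.2% to 34.5% in the other 6 libraries. The total was lower as well. The total was 8.06 FPKM in that library, against 15.6 to 25.5 FPKM in the others. Rrp1, a ribosomal RNA processing factor, had its 83-nt coding exon at 51.9% with chlorpyrifos, against 98.9% to 99.9997% in the other 6 libraries. Both Desi1 and Rrp1 had a total close to that of the other libraries. Anp32e, a chaperone that removes histone H2A.Z, had its 123-nt coding exon at 50.6% with chlorpyrifos, against 70.9% to 74.3% in the other 6 libraries. Its total was lower, at 120 FPKM against 208 to 224 FPKM. The OFF form was at 59.6 FPKM with chlorpyrifos, against 57.2 to 62.7 FPKM in the others.

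The Eif2a exon, in a factor for non-standard translation initiation, was at 33.6% with DDT, against 91.1% to 98.1% in the other 6 libraries. Both forms together had 30.4 FPKM in that library, against 26.1 to 33.1 FPKM in the others. The 122-nt UTR exon of Rnps1, which joins the exon junction complex, was at 48.96% with DDT, against 90.7% to 95.2% in the other 6 libraries. Scg3, a granin of secretory vesicles, had its 53-nt coding exon at 73.2% with DDT, against 99.1% to 99.8% in the other 6 libraries. In these 3 genes DDT was the low library, whereas for Srp19, a protein of the signal recognition particle, it was high. Its 72-nt coding exon was at 85.95% with DDT, against 49.1% to 59.1% in the other 6 libraries. The 117-nt coding exon of Ppp2r5c, a regulatory subunit of the phosphatase PP2A, was at 33.7% with DDT, against 8.87% to 11.3% in the other 6 libraries.

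The exons of Mcf2l named here are neighbours with the same upstream flank, and their shares are not separate observations. The 75-nt exon printed above was at 5.33% with rotenone, against 69.8% to 78.2% in the other 6 libraries. The 84-nt exon just upstream of it was at 97.1% with rotenone, against 1.15% to 39.04% in the other 6 libraries. The form that holds the 75-nt exon without the 84-nt exon is ON for the first and OFF for the second, at 0.304 and 0.313 FPKM with rotenone, against 4.51 and 4.52 FPKM in control, so opposite shares follow largely from how the events are defined. ON + OFF with rotenone was the lowest of the 7 libraries for the 75-nt exon, at 5.69 FPKM, and the highest for the 84-nt exon, at 10.7 FPKM. The 59-nt coding exon of Vopp1 was at 55.2% with rotenone, against 86.8% to 95.8% in the other 6 libraries, but its ON values are the OFF values of the 157-nt exon in all 7 libraries, so it adds no further observation. Snx17, a sorting nexin, had its 74-nt partly coding exon at 47.1% with rotenone, against 0.0564% to 2.57% in the other 6 libraries. The 65-nt coding exon of Gosr2, a Golgi SNARE, was at 55.8% with rotenone, against 90.5% to 99.99% in the other 6 libraries. Ltbp1, which holds latent TGF-beta in the matrix, had its 126-nt coding exon at 41.9% with rotenone, against 65.5% to 74.9% in the other 6 libraries.

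The exon of zyxin (Zyx), a focal adhesion protein, was at 21.4% with carbaryl, against 99.8% to 99.99% in the other 6 libraries. ON + OFF was 37.2 FPKM in that library, against 8.96 to 35.6 FPKM in the others. Vps26a, a core subunit of the retromer, had its 150-nt coding exon at 31.5% with carbaryl, against 94.7% to 99.4% in the other 6 libraries. The 120-nt coding exon of Arl6ip1, which shapes the endoplasmic reticulum, was at 64.8% with carbaryl, against 99.2% to 99.996% in the other 6 libraries. Carbaryl was thus the low library at 7 of its 9 exons. Cdk2, a cell-cycle kinase, had its 144-nt coding exon at 0.00583% with carbaryl, against 21.6% to 28.2% in the other 6 libraries. The total was 25.8 FPKM in that library, against 26.6 to 29.9 FPKM in the others.

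Beside Qrich1 with deltamethrin, Rps10, a ribosomal protein, had its 56-nt coding exon at 68.95% with deltamethrin, against 90.5% to 99.97% in the other 6 libraries. Rps10, like Ptma and Hnrnpa1, has processed copies in the genome that can share reads, so its values are uncertain. The exon printed for Lrrc49 was at 18.2% with imidacloprid, against 63.9% to 72.5% in the other 6 libraries. Both forms together had 16.7 FPKM in that library, against 15.9 to 17.3 FPKM in the others. Tial1, the RNA-binding protein TIAR, had its 60-nt UTR exon at 37.6% with imidacloprid, against 0.00225% to 4.18% in the other 6 libraries. For Adsl, an enzyme of purine synthesis, the 177-nt coding exon was at 72.2% with imidacloprid, against 99.8% to 99.98% in the other 6 libraries. Tlk2, a chromatin-assembly kinase, had its 96-nt coding exon at 72.03% with imidacloprid, against 99.8% to 99.99% in the other 6 libraries.

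Beside Tfe3, the 71-nt UTR exon of Cpsf6, a cleavage factor at polyadenylation sites, was at 62.98% in control, against 0.579% to 6.55% in the other 6 libraries. Tarbp2, a partner of Dicer, had its 103-nt coding exon at 41.6% in control, against 97.4% to 99.9% in the other 6 libraries. Its total in control was 18.3 FPKM, against a median of 7.43 FPKM (5.27 to 25.5 FPKM) in the others. Ythdf2, which binds m6A and speeds mRNA decay, had its 1584-nt exon at 84.1% in control, against 42.95% to 48.1% in the other 6 libraries. Each of these is a difference between control and every insecticide, in a single library. The 82-nt non-coding-transcript exon of Ptma, prothymosin alpha, was at 28.98% in control, against 0.697% to 0.931% in the other 6 libraries. ON + OFF was 737 FPKM in that library, against 499.5 to 759.9 FPKM in the others.

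**Figure D5:**
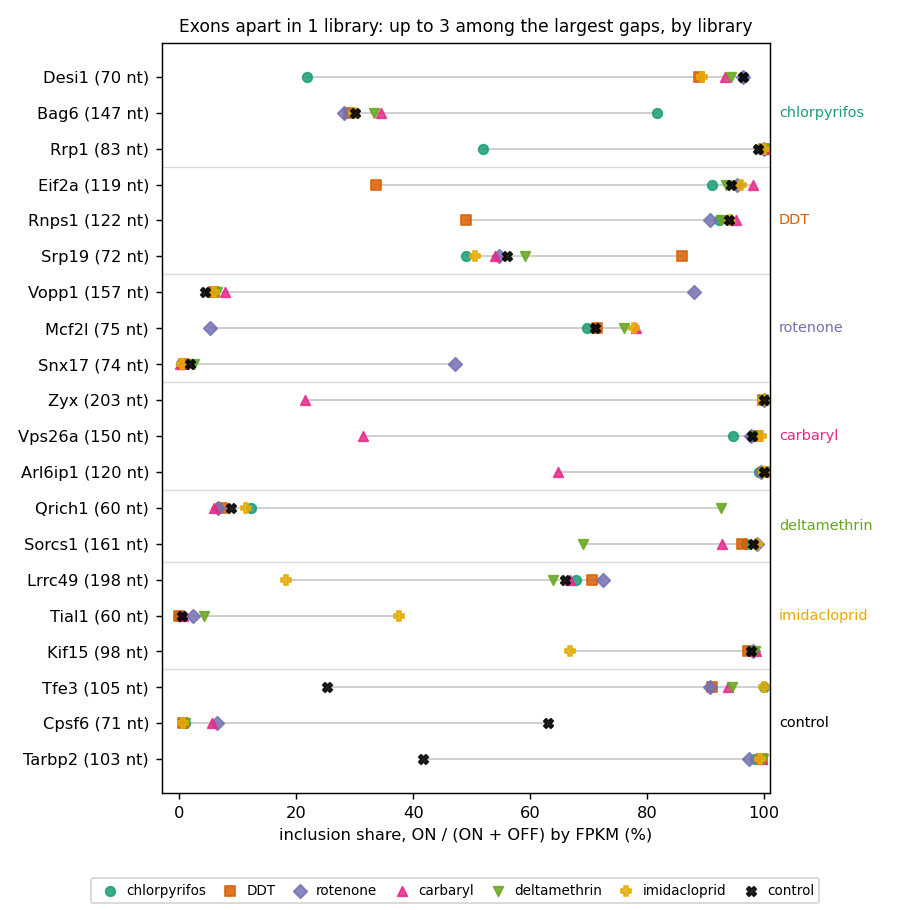
Inclusion share in each of the 7 libraries (horizontal axis, percent; 1 marker per library, grey line from lowest to highest) for the exons at which 1 library lay 20 points or more from the other 6, which spanned under 10 points; up to 3 genes among those with the largest gap are shown per library, whose name stands at the right. The largest gaps are Qrich1 with deltamethrin (92.7%, others at most 12.2%) and Vopp1 with rotenone (88.1%, others at most 7.75%).

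The list of SR proteins, hnRNPs and related factors had 58 exons of 39 of the 73 genes listed, with a median range of 9.47 points; 30 were under 10 points (51.7%, against 34.6% of the 1689) and 21 at 20 points or more (36.2%, against 45.9%). The median over all 1689 exons was 17.9 points. These genes were also strongly listed, with a median ON + OFF of 47.6 FPKM against 20.4 FPKM for all. Their shares lay low as well, with a median mean share of 12.3% against 69.2% for all. Over all 1689 exons, the median range was 11.8 points for a mean share of up to 20%. It was 36.7 points over 20% and up to 80%, and 8.27 points above 80%. Whether level and share account for the narrow ranges of this list was not tested. Of 72 to 80 exons usable per insecticide, 6 to 10 were 20 points or more above control (7.89% to 12.5%) and 5 to 9 below it (6.41% to 12%), where the backgrounds were 6.18% to 6.78% and 6% to 6.85%. Hnrnpa2b1 kept its 120-nt exon at 62.7% to 77.3%, and Hnrnpa1 its 156-nt exon at 99.2% to 99.6%. Srsf2, an SR protein that limits its own level through decay-prone splice forms, was the exception among the 6 most strongly listed exons. Its 104-nt UTR exon was at 0.722% with chlorpyrifos, 0.837% with DDT, 16.6% with rotenone, 0.810% with carbaryl, 0.891% with deltamethrin, 54.05% with imidacloprid and 9.55% in control. Imidacloprid was the highest library for it, and 4 libraries were under 1%.

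The list of genes with exons known to switch in neural development had 60 exons of 33 of the 79 genes listed, with a median range of 20.8 points; 20 were under 10 points (33.3%, against 34.6% of the 1689) and 31 at 20 points or more (51.7%, against 45.9%). Per insecticide, 85 to 95 exons could be set against control, with 1 to 8 higher by 20 points or more (1.05% to 9.41%) and 4 to 8 lower (4.21% to 9.41%), beside backgrounds of 6.18% to 6.78% and 6% to 6.85%. Clta, the clathrin light chain whose 54-nt exon is kept in neurons, was at 5.74% with chlorpyrifos, 10.4% with DDT, 11.3% with rotenone, 8.77% with carbaryl, 8.15% with deltamethrin, 9.04% with imidacloprid and 10.6% in control, low in every library. Map2, a dendritic microtubule protein, kept its 93-nt exon at 78.4% to 94.5% and its 63-nt UTR exon at 82.7% to 97.9%. The 168-nt exon of Aplp2, a relative of the amyloid precursor protein, was at 50.5% with chlorpyrifos, 46.6% with DDT, 36.4% with rotenone, 56.3% with carbaryl, 54.2% with deltamethrin, 64.1% with imidacloprid and 49.3% in control, and rotenone was the lowest of the 7. Tpm3, a tropomyosin, had its 79-nt exon at 0.00119% to 9.83% in the 6 exposed libraries, against 19.9% in control.

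TDP-43 (Tardbp) holds back or promotes a set of exons in neurons, and that list had 10 exons of 7 of the 20 genes listed, with a median range of 48.6 points; 0 were under 10 points (0%, against 34.6% of the 1689) and 7 at 20 points or more (70%, against 45.9%). Tardbp itself had a start level of 23.7 FPKM with chlorpyrifos and 64.3 FPKM with deltamethrin, against 117 FPKM in control. The other 4 exposed libraries had 98.2 to 130.4 FPKM. A start level counts only transcript starts matched to a single gene, so it can miss part or all of a gene's RNA. No start was matched to Hnrnpab, for example, although its exon had a mean ON + OFF of 593 FPKM. The 87-nt exon of Poldip3, skipped when TDP-43 is lost, was at 68.7% with chlorpyrifos, 93.3% with DDT, 80.1% with rotenone, 91.2% with carbaryl, 96.2% with deltamethrin, 93.04% with imidacloprid and 68.2% in control. Control and chlorpyrifos had its lowest shares. The 60-nt exon of the translation factor gene Eif4h was at 93.9% with chlorpyrifos, 83.3% with DDT, 95.8% with rotenone, 94.9% with carbaryl, 92.8% with deltamethrin, 88.6% with imidacloprid and 94.7% in control. A pair of exons in Wnk1, a kinase of ion transport, were both high in the same libraries: the 84-nt exon was at 85.9% with rotenone and 84.1% with carbaryl, the 462-nt exon at 72.2% and 83.1%, and the other 5 libraries, control included, were at 32.9% to 43.5% and 28.4% to 43.2%. Their OFF values were close, at 3.88 and 3.76 FPKM with rotenone and 18.8 and 17.1 FPKM in control. They were less so with carbaryl (4.89 and 2.81 FPKM). The Wnk1 exons may thus not be separate observations, and both are among the exons counted as higher with rotenone and with carbaryl. Of 11 to 12 exons usable per insecticide, 1 to 4 were 20 points or more above control (8.33% to 36.4%) and 0 to 3 below it (0% to 25%), where the backgrounds were 6.18% to 6.78% and 6% to 6.85%. With chlorpyrifos, the library with the lowest Tardbp start level, 1 of 11 exons was higher and 0 lower. It was 2 and 1 of 11 with deltamethrin, 2 and 2 of 12 with DDT and 1 and 0 of 12 with imidacloprid. Rotenone had 3 and 3 of 12, and carbaryl 4 and 2 of 11. A link between the Tardbp start level and these exons was not tested.

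Regulators of chromatin and transcription had 44 exons of 29 of the 65 genes listed, with a median range of 25.7 points; 9 were under 10 points (20.5%, against 34.6% of the 1689) and 26 at 20 points or more (59.1%, against 45.9%). Per insecticide, 59 to 61 exons could be set against control, with 4 to 8 higher by 20 points or more (6.56% to 13.3%) and 3 to 9 lower (4.92% to 14.8%), beside backgrounds of 6.18% to 6.78% and 6% to 6.85%. Brd2, a reader of acetylated histones, had a 92-nt exon whose ON form is annotated as a target of decay, at 32.4% with chlorpyrifos, 44.6% with DDT, 56.5% with rotenone, 54.8% with carbaryl, 98.9% with deltamethrin, 58.04% with imidacloprid and 57.7% in control. Deltamethrin was far above the rest for it, but the ON form was not higher there: it had 31.6 FPKM, against 18.2 to 31.7 FPKM in the other libraries. The OFF form had 0.357 FPKM with deltamethrin, against 20.5 to 37.9 FPKM. ON + OFF was lower too, at 32.0 FPKM against 48.3 to 59.0 FPKM. Ezh2, the methyltransferase of Polycomb, had its 126-nt exon at 24.6% to 55.5%, highest with carbaryl, and Ncor1, a corepressor, its 141-nt exon at 37.5% to 67.9%, lowest with carbaryl. The 63-nt exon of Gtf2i, a general transcription factor gene, was at 7.25% to 36.7%.

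Apoptosis and p53 genes had 8 exons of 5 of the 33 genes listed, with a median range of 36.05 points; 2 were under 10 points (25%, against 34.6% of the 1689) and 6 at 20 points or more (75%, against 45.9%). Bax, which opens the outer mitochondrial membrane, kept its 147-nt exon at 99.2% to 99.97%. Mdm2, the ubiquitin ligase of p53, had an 85-nt exon at 90.3% with chlorpyrifos, 52.6% with DDT, 90.7% with rotenone, 93.2% with carbaryl, 92.9% with deltamethrin, 60.9% with imidacloprid and 87.5% in control, with DDT and imidacloprid below the rest. Bclaf1, a nuclear factor first tied to Bcl2, had its 147-nt exon at 52.4% with DDT and 73.8% with deltamethrin, 97.2% to 98.9% in the other 4 exposed libraries and 55.4% in control. Of 11 to 16 exons usable per insecticide, 2 to 3 were 20 points or more above control (14.3% to 27.3%) and 0 to 2 below it (0% to 18.2%), where the backgrounds were 6.18% to 6.78% and 6% to 6.85%.

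Mitochondrial genes, of interest because rotenone blocks complex I, had 16 exons of 13 of the 48 genes listed, with a median range of 16.9 points; 6 were under 10 points (37.5%, against 34.6% of the 1689) and 7 at 20 points or more (43.8%, against 45.9%). Per insecticide, 21 to 26 exons could be set against control, with 0 to 1 higher by 20 points or more (0% to 4.55%) and 0 to 4 lower (0% to 19.05%), beside backgrounds of 6.18% to 6.78% and 6% to 6.85%. With rotenone 0 of 22 were higher and 2 lower (9.09%), where the backgrounds with rotenone were 6.71% and 6%. Complex I genes among the exons named had Ndufv1 at 97.3% to 99.997% for 171 nt, Ndufs1 at 0.0129% to 9.80% for a 104-nt UTR exon and Ndufv3 at 13.2% with chlorpyrifos, 0.103% with DDT, 8.99% with rotenone, 2.78% with carbaryl, 2.23% with deltamethrin, 13.1% with imidacloprid and 17.7% in control for a 1092-nt exon. Mff, which recruits the fission machinery, had a 60-nt exon at 15.4% with chlorpyrifos, 51.3% with DDT, 52.1% with rotenone, 62.8% with carbaryl, 38.02% with deltamethrin, 55.7% with imidacloprid and 72.3% in control, and chlorpyrifos was the lowest of the 7.

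Synaptic, channel and cholinergic genes, which hold the targets of several of these insecticides, were little measured: 5 exons of 4 of the 67 genes listed could be used in all libraries, with a median range of 53.6 points; 1 was under 10 points (20%, against 34.6% of the 1689) and 4 at 20 points or more (80%, against 45.9%). Gria2, an AMPA receptor subunit known for a flip and a flop exon, had a pair of adjacent 115-nt exons. Each was listed with the other as its flank, so that the ON form of each holds both. The ON form of the upstream one matched no annotated transcript. That of the downstream one matched only a transcript annotated as a target of decay. Each share thus sets a form with both exons against a form with only the other exon, not flip against flop. The upstream one was at 35.2% with chlorpyrifos, 53.5% with DDT, 62.2% with rotenone, 60.2% with carbaryl, 23.3% with deltamethrin, 41.9% with imidacloprid and 82.4% in control. The downstream one, UTR in the matched transcript, was at 68.3% with chlorpyrifos, 52.3% with DDT, 73.4% with rotenone, 74.98% with carbaryl, 42.4% with deltamethrin, 47.5% with imidacloprid and 96.2% in control. Control was the highest library and deltamethrin the lowest for both. Abi1, an actin regulator at synapses, had its 87-nt exon at 16.8% to 70.4%, and Arhgef7, an exchange factor for Rac, its 177-nt exon at 2.29% to 9.997%. Of 9 to 15 exons usable per insecticide, 0 to 2 were 20 points or more above control (0% to 13.3%) and 3 to 4 below it (20% to 36.4%), where the backgrounds were 6.18% to 6.78% and 6% to 6.85%. Both Gria2 exons were among the lower ones with every insecticide. The lower counts thus rest largely on this linked pair and on the same control library, and are not separate observations.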

How the data were processed

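RNA from 7 cultures was measured, 1 library per condition. Per the submitters' processing notes, the tools were HISAT2 2.0.1, cutadapt 1.9.1 and bcl2fastq 2.17.1.14, with the build GRCm38. The program behind the events and values was not given in the sources used here. The authors' deposited tables give 1 FPKM value per event, per the file headers, and list only values above 0 (lowest 1e-06). They were used as deposited.

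Repeated lines, 1973 to 2078 per library, were dropped for the events used. ON and OFF entries with the same exon, flanks and strand were paired. Exons were matched to GENCODE M21 (GRCm38) by exon and both flanks, which gave names, exon numbers, coding class and sequence, since 4.62% of usable exons stand on a line that names another gene. An exon was used in a comparison when both forms were listed and ON + OFF was at least 5 FPKM in both libraries. Groups follow the sample titles, no column of another sample was present (0 such columns), and with 1 library per group no test, interval or p-value was computed. Counting was checked on simulated shares without noise and with both forms always listed. That check covers the pairing and counting steps alone, not unlisted forms or the transcript-model estimates. The exon of 1 gene is counted in the totals but not reported here.

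Named exons are, per comparison, the 4 largest increases and 4 largest decreases past 20 points (1 event per gene, without predicted models, clone names and pseudogenes), the 10 widest and 10 narrowest ranges, and from up to 6 strongly listed exons of each of 7 gene lists. The members and lists were chosen with earlier results of these data known. Python 3.11.15, pandas 2.3.3, numpy 2.4.6 and matplotlib 3.10.9 were used.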

Additional observations from a re-analysis of the deposited data

How the results depend on the processing

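Counts of exons past the limit are given against control, for chlorpyrifos, DDT, rotenone, carbaryl, deltamethrin and imidacloprid in turn. As reported they were 364, 388, 371, 369, 388 and 389, with 371 as the median of all 21 pairs. With a minimum of 1 FPKM they were 624, 656, 626, 639, 665 and 633, with 639 as the median of all 21 pairs; with 10 FPKM, 188, 200, 208, 207, 210 and 197, with 207 as the median of all 21 pairs; with no minimum, 739, 774, 755, 764, 778 and 767, with 764 as the median of all 21 pairs. With an unlisted form taken as 0 they were 559, 595, 566, 570, 592 and 603, with 573 as the median of all 21 pairs. With 1 event per gene they were 205, 218, 214, 199, 213 and 217, with 210 as the median of all 21 pairs. A limit of 10 points gave 759, 736, 768, 768, 769 and 749, with 760 as the median of all 21 pairs, and one of 30 points 196, 204, 192, 186, 195 and 210, with 197 as the median of all 21 pairs. A log2 ratio of ON to OFF different by 1 or more gave 699, 745, 725, 728, 779 and 744, with 734 as the median of all 21 pairs. The pairs with control and the pairs of 2 insecticides overlapped under every one of these settings: their median percentages were 10.8% and 11.04% at 10 FPKM, for example. The median over libraries of the median share, 70.96% as reported, was 68.6% at 1 FPKM, 75.4% at 10 FPKM, 68.2% with no minimum, 68.1% with a pseudocount of 1 FPKM, 88.9% with unlisted forms as 0, 74.1% with 1 event per gene and 69.95% with the XSKIP repeats counted, a setting chosen after seeing the data. Exons spanning under 10 points numbered 2425 of 4720 with unlisted forms as 0 and 373 of 1076 with 1 event per gene, against 585 of 1689. The pair medians changed order too, from 13.9% and 13.6% as reported to 18.1% and 18.2% at 1 FPKM. The direction with more exons past the limit changed under 6 of 11 settings for chlorpyrifos, 3 for DDT, 1 for rotenone, 2 for carbaryl, 3 for deltamethrin and 0 for imidacloprid, with the share of higher exons from 40% (DDT, at 10 FPKM) to 55.6% (rotenone, 1 event per gene). All 48 named differences stayed past 20 points in the same direction with a pseudocount, with unlisted forms as 0 and with events of an exon merged, although that of Map4 shrank from -90.2 to -39.7 points with the last; at 10 FPKM 27 of them could still be used and stayed so. Of 60 named ranges, 5 moved with the pseudocount and none with merged events. The cause was not tested where a setting also changes which exons are used. No paired analysis was possible because each group has 1 library, and for the same reason no library could be left out within a group. Depth is unknown, and shares of exons near 5 FPKM are the least certain.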
